A study of Mus musculus with 8 samples.

Results

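The wild-type mouse embryonic stem cells of a study of the RNA-binding protein TRIM71 were described by the absolute level of their transcripts. The wild-type group was taken from the sample labels and holds 2 of the 8 libraries of the series. The series has 4 groups of 2 libraries. The others are a Trim71 knockout, a line with a mutated Mbnl1 3′UTR and a line that overexpresses Mbnl1, and they served here only to give ranges. The wild-type line has a mixed 129 and C57BL/6 background. It carries Cre-ERT2, a recombinase switched on by tamoxifen, and BirA-V5, a tagged biotin ligase, at the Rosa26 locus, so it is an engineered line and not an unmodified one. The labels give this line for every group. Cells grew on gelatin, with no feeder layer named, in medium with 15% fetal bovine serum and LIF, the cytokine that keeps mouse embryonic stem cells from differentiating. Total RNA was made into stranded libraries and read as pairs of 75 nt. Whether separate cultures gave the libraries is not stated, so their spread may be technical.

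Embryonic stem cells derive from the inner cell mass of the blastocyst and can form every tissue of the embryo. Their identity rests on the transcription factors OCT4 (gene Pou5f1), SOX2 and NANOG, which bind together at enhancers of one another and of many other genes. LIF acts through its receptor, JAK kinases and STAT3 to sustain a set of further factors known as the naive network. TRIM71, also known as LIN41, is an RNA-binding protein of early embryos and stem cells that represses target messages. Its own message is a classic target of the let-7 microRNAs.

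The libraries held 80640117 counts (replicate 1) and 75056306 counts (replicate 2), against a range of 75056306 to 86508533 over the series. Levels are given in TPM, counts divided by exon length and scaled to a sum of 1000000, in replicate 1 and then in replicate 2. A protein-coding gene of the median exon length, 3538 nt, received 101 and 93.3 counts at 1 TPM. A count of 0 allows up to 3 counts, or 0.0372 and 0.04 CPM (counts scaled to a library total of 1000000). These limits cover counting error only.

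Of 42462 annotated genes, 13317 reached 1 TPM in both libraries. Among 21474 protein-coding genes, 11345 did so, or 52.8%. Of these, 7263 reached 10 TPM, 1372 reached 100 TPM and 97 reached 1000 TPM. At the other end, 6970 protein-coding genes, 32.5%, lay under 0.1 TPM in both libraries, and 4563 of them had no count at all. In the text, silent means under 0.1 TPM in both libraries.

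Counts were spread over many genes. The 10 protein-coding genes with the most counts held 5.01% and 5.07% of the protein-coding counts, and the top 100 held 18% and 18.1%. It took 858 and 853 protein-coding genes to reach 50% of them, and 4919 and 4916 to reach 90%. Over all genes, the top 10 held 9.91% and 8.36%, and the first of these was Gm26917. This locus, annotated as a long noncoding RNA but grouped here with loci that resemble ribosomal RNA, had 3593176 and 1968931 counts.

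The markers that name the cells were all high. In mm10 coordinates, Pou5f1 (chromosome 17, 35506018 to 35510772, + strand) stood at 1435 and 1465 TPM, from 91925 and 86915 counts, a mean of 1450.0 ± 21.7 TPM (SD, n = 2). It was the protein-coding gene of rank 57 by mean TPM. Sox2 (chromosome 3, 34650405 to 34652461, + strand) had 537 and 583 TPM, and Nanog (chromosome 6, 122707489 to 122714633, + strand) had 393 and 392 TPM, at ranks 191 and 280. Trim71 (chromosome 9, 114507133 to 114564369, - strand) had 187 and 192 TPM from 49721 and 47375 counts, at rank 675. All 4 exceeded 100 TPM in both libraries, and their CPM differed between the libraries by -0.11 to 0.01 on the log2 scale. All of these markers thus fitted the label of the cells.

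**Figure D1:**
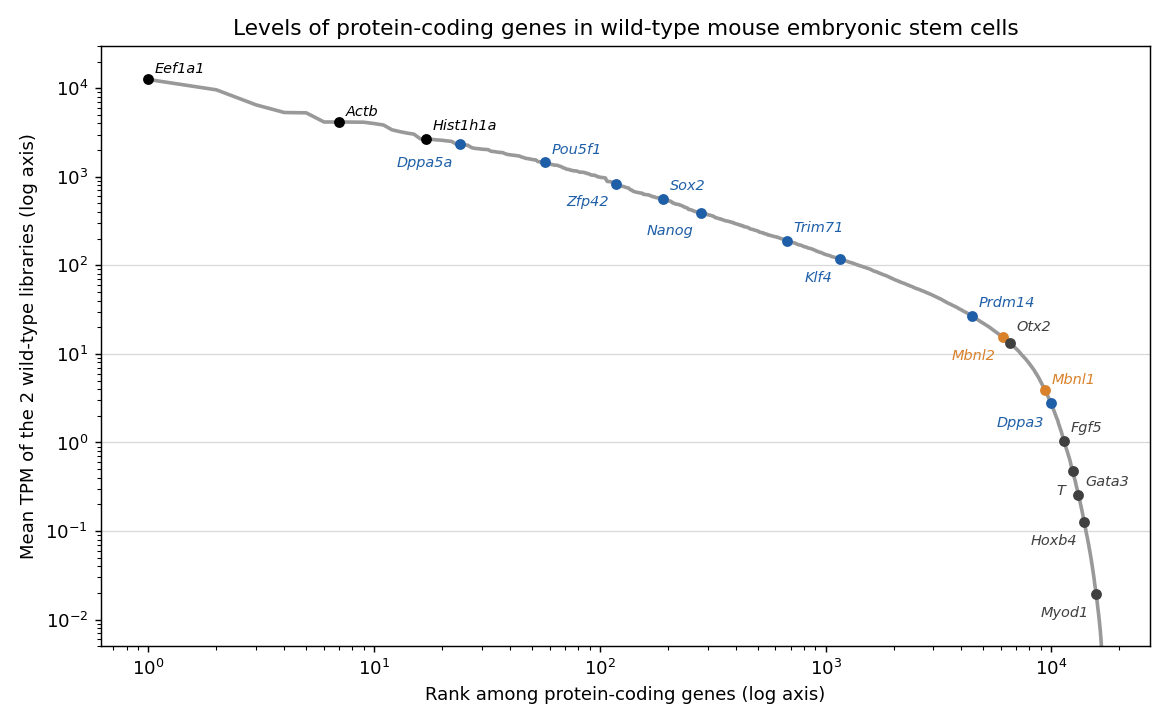
Mean TPM of each protein-coding gene (log axis) against its rank (log axis). Blue points mark pluripotency genes, from Dppa5a at 2314 TPM to Dppa3 at 2.79 TPM. Orange points mark Mbnl2 (15.4 TPM) and Mbnl1 (3.91 TPM), and dark grey points mark genes of later stages, from Otx2 at 13.4 TPM to Myod1 at 0.0196 TPM.

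The wider naive list was present in full. Of 30 genes, all reached 1 TPM, 29 reached 10 TPM and 22 reached 100 TPM, with a median of 235 TPM. For comparison, 6.39% of all protein-coding genes reached 100 TPM. The highest was Dppa5a, an RNA-binding protein of early embryos, at 2263 and 2365 TPM and rank 24. Trim28, the corepressor that silences retroviral elements, had 1428 and 1392 TPM. Tdh, the threonine dehydrogenase on which mouse embryonic stem cells depend, had 1012 and 980.2 TPM, and Zfp42, the classical marker REX1, had 838 and 838 TPM.

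Signalling and RNA-binding members followed. Tdgf1, the Nodal co-receptor CRIPTO, had 563 and 608 TPM, and L1td1, an RNA-binding protein derived from a LINE-1 element, had 525 and 599 TPM. Lin28a, which blocks let-7 maturation, had 397 and 397 TPM. These genes stood above Nanog, which in turn stood above the LIF-responsive factor Tfcp2l1 at 342 and 331 TPM. Mybl2, a cell-cycle factor, had 317 and 311 TPM, Klf2 had 299 and 291 TPM and Sall4 had 284 and 276 TPM. Nr0b1 (DAX1), an orphan receptor, and Esrrb, an orphan nuclear receptor of the naive network, lay side by side at 278 and 265 TPM and 271 and 271 TPM.

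A middle tier held Utf1 (237 TPM on average), Zfp57 (233), Dppa4 (219), Fgf4 (158), Dnmt3l (149), Klf4 (119), Tcl1 (103), Dppa2 (94), Gbx2 (90.2), Fbxo15 (86.1), Nr5a2 (78.3) and Klf5 (68.4). The lowest naive genes were far below these. Prdm14, which represses DNA methyltransferases, had 26.8 and 27.1 TPM, and Tbx3 had 26.8 and 25.5 TPM. Dppa3, the maternal factor also named Stella, had 2.95 and 2.63 TPM from only 75 and 62 counts. Between the libraries the CPM of the 30 genes differed by -0.19 to 0.18 on the log2 scale.

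Genes of the later, formative and primed states were mixed. Of 20, 15 reached 1 TPM, 9 reached 10 TPM and 3 reached 100 TPM, with a median of 6.08 TPM. These shares were above those of all protein-coding genes, which were 52.8%, 33.8% and 6.39%. The Nodal pathway led: Lefty1, a secreted Nodal inhibitor, had 151 and 154 TPM, Nodal itself had 103 and 100.3 TPM, and Lefty2 had 71 and 78.9 TPM. Tcf15, a factor of cells leaving the naive state, lay between Lefty1 and Nodal at 131 and 146 TPM. Dnmt3b had 77.5 and 80.3 TPM and Dnmt3a had 17.6 and 19.7 TPM. Foxd3 (29.9 and 27.6 TPM), Otx2 (13.6 and 13.2 TPM) and Pim2 (14.3 and 12.5 TPM) came next.

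The remaining genes of the formative and primed list were lower. They are grouped here by their level and not by their role. Fgf5, a marker of the post-implantation epiblast, had 1.23 and 0.864 TPM, and Pou3f1 (OCT6) had 7.38 and 7.05 TPM. Zic2 (4.94 TPM), Foxa2 (4.26), Eomes (2.32), Cdh2 (2.25) and Sox3 (2.24) lay between 2 and 5 TPM. Wnt8a (0.619), T or brachyury (0.472) and Lef1 (0.305) lay under 1 TPM, and Cer1 had no count in either library.

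Markers of the rare cells that resemble the 2-cell embryo were at or near 0. Of 15 measured genes, all were silent and 13 had no count in either library. These included Zfp352, Tcstv1, Tcstv3, Usp17la, Duxf3, Tdpoz1 and Zscan4c. The list as a whole drew 1 count in replicate 1 and 1 in replicate 2, which fell on Gm5662 and Zscan4d. Zscan4 genes are near-identical copies, and reads that fit several of them may not have been counted, so these zeros are uncertain. Zscan4a was not analysed here.

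Fibroblast genes, which mark feeder cells, were low. Of 19, 8 reached 1 TPM, 1 reached 10 TPM and 7 were silent. Of all protein-coding genes, 52.8% reached 1 TPM, 33.8% reached 10 TPM and 32.5% were silent. The shares at 1 TPM and silent are thus not far from those of all genes. The list had a median of 0.355 TPM and a summed level of 28.7 and 30.9 TPM. Tagln, an actin-binding protein, was the highest at 12.8 and 15.3 TPM. The fibrillar collagens Col1a1 (0.283 and 0.427 TPM), Col1a2 (0.0311 and 0.0854 TPM) and Col3a1 (0.114 and 0.0618 TPM) lay under 1 TPM, and the matrix genes Dcn and Postn had 0 and 2 and 1 and 0 counts. Fap had 0 and 1 counts and Lum had none. Twist1 (3.07 TPM), Col5a1 (2.62), Thy1 (2.28), Acta2 (1.81), Loxl1 (1.6) and Fbn1 (1.13) reached 1 TPM on average. S100a4, at 2.04 and 1.3 TPM, is uncertain because 51.7% of its exons overlap another gene on the same strand. In bulk RNA, fewer cells of a type and less RNA per cell cannot be told apart.

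The highest protein-coding transcripts served translation, protein folding and chromatin. Eef1a1, the elongation factor that brings aminoacyl-tRNA to the ribosome, was first at 12411 and 12664 TPM. Behind the mitochondrial gene mt-Co1 came the ribosomal proteins Rplp1 (6595 and 6366 TPM) and Rplp0 (5441 and 5191 TPM), then Ptma, the chromatin-associated prothymosin alpha (5169.5 and 5369 TPM). Rpl4, Actb, Npm1 and Hsp90ab1 lay within a narrow band of 4129 to 4154 TPM. Actb encodes cytoplasmic actin, Npm1 a nucleolar chaperone and Hsp90ab1 a cytosolic HSP90.

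The rest of the first 20 nuclear genes included Rpl8 (3988 TPM), Hsp90aa1 (3839), Ftl1, the ferritin light chain (3387), Rpl36 (3231), Rps4x (3112), Rpl7 (3028), Rps15 (2686), Hist1h1a (2661), Rps3a1 (2641), Rpl32 (2606) and Eef2, the translocation factor of the ribosome (2511). Ribosomal proteins made up 11 of these 20 and 48 of the first 100. Histone genes made up 12 of the first 100.

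Subunits of large machines were present together. The 83 cytosolic ribosomal proteins had a median of 1084 TPM (quartiles 624 and 1778) and took 6.9% and 6.91% of all counts. Their lowest members were the muscle paralog Rpl3l at 1.11 and 0.877 TPM, Rpl24 at 5.04 and 5.11 TPM and Rpl39l, a testis paralog, at 22.2 and 21.7 TPM. Rpl24 is uncertain, since 47% of its exons overlap another gene on the same strand. The 77 mitochondrial ribosomal proteins had a median of 60.8 TPM, with Mrpl18 highest at 254 and 253 TPM. Mrpl53, with 88% overlap, had no count.

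The 8 subunits of the cytosolic chaperonin CCT, which folds actin and tubulin, ranged from 364 TPM (Cct7) to 1017 TPM (Cct5). In counts these 2 were closer, with 70130 and 65442 for Cct7 and 79482 and 74836 for Cct5. Their annotated exon lengths were 6778 nt and 2766 nt, so this range depends on the annotation. The 6 subunits of the MCM helicase, which unwinds DNA at replication origins, ranged from 208 TPM (Mcm2) to 572 TPM (Mcm5). Every subunit of both complexes thus exceeded 200 TPM on average.

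Of 19 genes of the proteasome core, 16 exceeded 10 TPM, led by Psma6 at 468 and 496 TPM. The exceptions were the inducible immunoproteasome subunits Psmb9 (0.479 and 0.601 TPM) and Psmb8 (0.0415 and 0.0224 TPM), and Psmb11, the thymus subunit (0.00732 and 0.00791 TPM). The 20 genes named Psmc or Psmd all exceeded 10 TPM, from Psmd9 at 12.4 and 12.1 TPM to Psmc5 at 392 and 394 TPM. The third inducible subunit, Psmb10, was not among the low ones, at 53.5 and 48.7 TPM.

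The same held for other machines. All 12 EIF3 subunits, which recruit the small ribosomal subunit, lay between 172 and 676 TPM. All 18 cytosolic aminoacyl-tRNA synthetases lay between 79.6 TPM (Cars) and 598 TPM (Gars). The 37 genes taken by their Nduf symbols, mostly of complex I of the respiratory chain, had a median of 119 TPM. The lowest was Ndufa4l2, a paralog induced by hypoxia, at 0.641 and 0.381 TPM, and the next was Ndufb2 at 4.56 and 4.59 TPM. Ndufb2 had 732 and 681 counts over an annotated exon length of 5628 nt. Ndufs5, with 244 and 252 counts over 860 nt, stood above it in TPM, so the place of Ndufb2 depends on the annotation. RNA polymerase II subunits ranged from Polr2l (24.9 and 22.7 TPM) to Polr2b (214 and 224 TPM).

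Splicing proteins were high as a class. The 11 SR proteins had a median of 245 TPM, led by Srsf2 (487 and 496 TPM) and Srsf1 (384 and 421 TPM), with Srsf12 lowest at 1.32 and 1.24 TPM. The 20 hnRNP genes all exceeded 10 TPM, led by Hnrnpab (866 and 901 TPM) and Hnrnpa1 (727 and 788 TPM). Among the SMC ATPases, those of condensin and mitotic cohesin ran from Smc1a (98.4 and 109 TPM) to Smc4 (197 and 219.6 TPM), above Smc5 (52.8 and 57.2 TPM) and Smc6 (33.1 and 36.4 TPM) of the SMC5/6 complex.

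Replication-dependent histone messages, which end in a stem-loop and carry no poly(A) tail, were abundant in these total-RNA libraries. Of 63 genes in the Hist clusters, 52 reached 10 TPM, and together they summed to 34302 and 33979.8 TPM. The linker histones were led by Hist1h1a (2649 and 2673 TPM) and Hist1h1b (1702 and 1750.4 TPM), ahead of Hist1h1c (769.8 and 804 TPM), Hist1h1e (466 and 474 TPM) and Hist1h1d (254 and 261 TPM). Hist1h1d had 53718 and 51187 counts and Hist1h1a 55948 and 52256, but Hist1h1d has an annotated exon length of 7425 nt against 741 nt, so its order by TPM depends on the annotation. H1f0 had 48.1 and 53.6 TPM, the testis form Hist1h1t 9.23 and 10.6 TPM and H1fx 8.91 and 8.66 TPM, while the oocyte form H1foo had 2 and 0 counts.

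Among core histones the highest were Hist1h2bb (2016 and 2082 TPM), Hist1h4f (1941 and 1908 TPM), Hist1h4h (1696 and 1640.2 TPM) and Hist1h4k (1482 and 1462 TPM). Hist2h2aa1 and Hist2h3c1 had no count. Of their exons 90.3% and 100% overlap another gene on the same strand. Histone copies are so alike that reads may be shared or lost, so levels of single genes are uncertain. Replacement histones were also high: H2afz had 1127 and 1125 TPM and H2afv 105 and 105 TPM, and for histone H3.3 H3f3b had 479 and 496 TPM and H3f3a 270.0 and 270.0 TPM.

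Gene classes other than protein-coding took a small share of counts. Protein-coding genes held 91.2% and 92.9% of counts. Long intergenic noncoding RNAs (lincRNA) held 5.37% and 3.55%, of which most lay in Gm26917 and Gm42418. Loci that resemble ribosomal RNA took 4.82% and 2.88% of counts, and the mitochondrial genome took 1.42% and 1.61%.

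**Figure D2:**
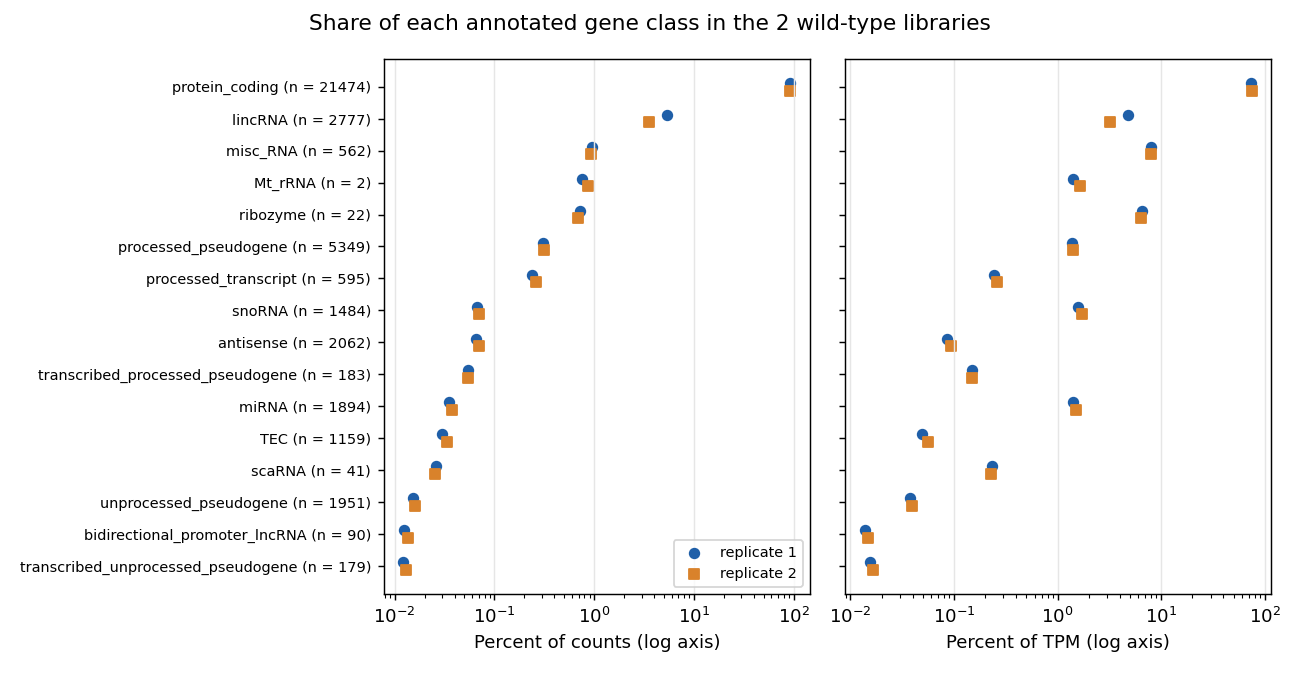
Share of counts (left) and share of TPM (right) of the 16 largest annotated gene classes, as points for each of the 2 libraries on log axes, with the number of genes in each class. The misc_RNA class rises to 8.06% and 8.06% of TPM from 0.942% and 0.937% of counts, since its genes are short.

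Short RNAs made by RNA polymerase III led the scale per length. Rn7sk, the 7SK RNA that holds the elongation factor P-TEFb inactive, was the highest transcript of all at 79572 and 79697 TPM. Rpph1, the RNA of ribonuclease P, had 47786 and 46429 TPM, and Rmrp, the RNA of the related RNase MRP, had 17785 and 17005 TPM. The last is uncertain because its annotated exon lies wholly within another gene on the same strand, and 73% of Rpph1 does too. The signal recognition particle RNAs Rn7s2 (287 and 258 TPM) and Rn7s1 (139.8 and 113 TPM), each with 49% overlap, were lower. The telomerase RNA Terc, a product of RNA polymerase II, had 257 and 244 TPM.

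Smaller RNAs of RNA polymerase III and of small nuclear particles were measured as counts, because exons under 200 nt are shorter than most fragments. The Y RNAs Rny3 and Rny1 had 193 and 142 and 145 and 119 counts, and the minor spliceosome RNAs Rnu11 and Rnu12 had 208 and 190 and 86 and 97. The vault RNA Vaultrc5 had 37 and 46, and Rnu7, which processes histone messages and overlaps another gene, had none. Counts of RNAs this short were not set in order with those of longer genes.

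Among long noncoding RNAs, after Gm26917 and Gm42418, Malat1, a nuclear RNA of speckles, was highest at 1330.1 and 1724 TPM. Gm42743 had 1193 and 1177 TPM. The hosts of small nucleolar RNAs followed: Snhg6 (203 and 224 TPM), Gas5 (154 and 174 TPM), Epb41l4aos (154 and 161 TPM), Snhg5 (129 and 143 TPM), Snhg3 (104 and 109 TPM), Zfas1 (59.6 and 66.5 TPM) and Snhg12 (48.4 and 54.7 TPM). Of the exons of Snhg3 29.8%, and of those of Snhg12 19.6%, overlap another gene on the same strand, so these levels are uncertain.

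RNAs named for pluripotent cells were led by Platr10 (187 and 214 TPM). Lncenc1 had 19.7 and 19.3 TPM, Platr4 7.86 and 8.98 TPM, Platr20 7.9 and 8.57 TPM and Platr3 4.85 and 5.7 TPM. Mir17hg, the host of the miR-17 to miR-92 cluster, had 63.7 and 75.9 TPM. Tug1 (36.8 and 40.7 TPM), Neat1, the scaffold of paraspeckles (20.7 and 24.9 TPM), Dleu2 (10.9 TPM on average) and Pvt1 (6.2 and 6.58 TPM) were lower. Miat lay at 0.434 and 0.396 TPM, Fendrr drew 1 and 0 counts, and Hotair and Hottip, both from HOX clusters, had none. Snhg1, Snhg8, Norad, Rmst, Sox2ot and Oip5os1 were not analysed here.

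The Cajal body RNAs, which guide the modification of spliceosomal RNAs, were led by Scarna2 (9767 and 8523 counts) and Scarna13 (5086 and 4550). The small nucleolar RNAs were led by Snora73b (6206 and 5838 counts), Gm23455 (5097 and 4665) and Rnu3a (4249 and 3404). The last 2 are uncertain, with 100% and 99.5% overlap. Of 1484 snoRNA genes, 314 had a count. Processed pseudogenes, copies of messages, numbered 5349, and 558 reached 1 TPM. The highest were Gm15459 (872 and 894 TPM) and Rps3a3 (851 and 899.8 TPM), whose reads may belong to parent genes. Antisense genes were led by Rab26os (71.4 and 78.7 TPM) and Tug1, and bidirectional promoter transcripts by B230354K17Rik (22.3 and 23 TPM). Immunoglobulin and T cell receptor segments were low, with Trav19 (4.48 and 3.74 TPM) the highest of the T cell receptor and Igkv4-90 (1.89 and 1.72 TPM) of the immunoglobulin variable genes.

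Mitochondrial messages were uneven. mt-Co1, a subunit of cytochrome oxidase, had 9017 and 10146 TPM, mt-Nd1 2415 and 2665 TPM and mt-Cytb 1451 and 1654 TPM. mt-Co3, mt-Co2 and mt-Atp6 of the same genome had 110 and 96, 63 and 52 and 23 and 19 counts, and mt-Nd4l and mt-Atp8 at most 1. The cause of this spread within 1 genome was not tested, and these values are given as counted.

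Hairpins of the miR-290 to miR-295 cluster, the main microRNA cluster of mouse embryonic stem cells, were counted, while those of the miR-302 cluster were nearly empty. The sequences below show which of the mature microRNAs of these clusters share a seed, the bases that pair with targets. They are printed from RefSeq (GRCm38.p6) 5′ to 3′ with the seed, bases 2 to 8, in capitals.
miR-291a-3p: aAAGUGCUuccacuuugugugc
miR-294-3p: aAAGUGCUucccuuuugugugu
miR-295-3p: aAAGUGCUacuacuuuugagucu
miR-302b-3p: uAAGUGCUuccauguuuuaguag
miR-302d-3p: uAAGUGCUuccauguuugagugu
miR-291b-3p: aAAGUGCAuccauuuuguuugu
miR-290a-3p: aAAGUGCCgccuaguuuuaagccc
let-7a-5p: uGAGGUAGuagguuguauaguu
let-7g-5p: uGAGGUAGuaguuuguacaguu
miR-98-5p: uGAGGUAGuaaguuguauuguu

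The first 5 of these carry the same 7-base seed, AAGUGCU, so the counted and the empty cluster share it. It occurs in 5 of the mature RefSeq entries used here. These entries lack some arms, such as the 3p arm of Mir302a, so 5 is not a full count for the mouse. The seeds of miR-291b-3p and miR-290a-3p are AAGUGCA and AAGUGCC. The let-7 seed GAGGUAG, which marks the repressors of Trim71 and Lin28a, is in 11 of the entries, miR-98-5p among them. Since let-7c-5p is listed for both Mirlet7c-1 and Mirlet7c-2, 11 may not be the number of distinct sequences.

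The values are reads over the hairpins in total RNA, and they do not measure mature microRNA. Mir291b (chromosome 7, mature 3p arm 3219529 to 3219550) had 2720 and 3162 counts. Mir293 had 1502 and 1742, Mir290a 1414 and 1444, Mir292 927 and 974, Mir291a 765 and 799, Mir295 624 and 758 and Mir294 283 and 352. The cluster summed to 8235 and 9231 counts. Mir290b and Mir292b were not analysed here.

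The 5 hairpins Mir302a to Mir302d and Mir367, on chromosome 3, drew 4 and 4 counts in all, with at most 2 in any hairpin. The 10 let-7 hairpins measured drew 143 and 166. Most of those fell on Mirlet7a-1 (108 and 123), which lies wholly within another gene on its strand. Mir98 had 18 and 22, Mirlet7i 9 and 11 and Mirlet7g 8 and 8, and Mirlet7b, Mirlet7c-1, Mirlet7c-2 and Mirlet7d had none. Mirlet7e and Mirlet7f-1 were not analysed here.

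Of 1894 microRNA genes, 604 had a count and 17 had 100 or more in both libraries. Predicted genes of 57 nt took many counts of the class: Gm23935, Gm24187 and Gm24270 had 8457 and 7446, 3025 and 2951 and 1511 and 1370 counts. Mir6236 had 1088 and 1229. Hairpins of the imprinted cluster on chromosome 12, Mir127 (172 and 194), Mir3070b (187 and 171), Mir3070a (139 and 154) and Mir433 (109 and 125), stood below all 7 hairpins of the miR-290 cluster.

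The share held by the leading paralog varied widely between families. In 70 families and subunit sets with 349 members, 252 members reached 1 TPM and 44 were silent, beside 52.8% and 32.5% of all protein-coding genes. The leading member held 90% or more of the family's TPM in both libraries in 21 families, and under 50% in 13. In a set of 2 members a leader cannot hold under 50%, so these counts depend on family size. The lists mix families chosen with earlier results of these data known, so the counts describe this choice only.

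**Figure D3:**
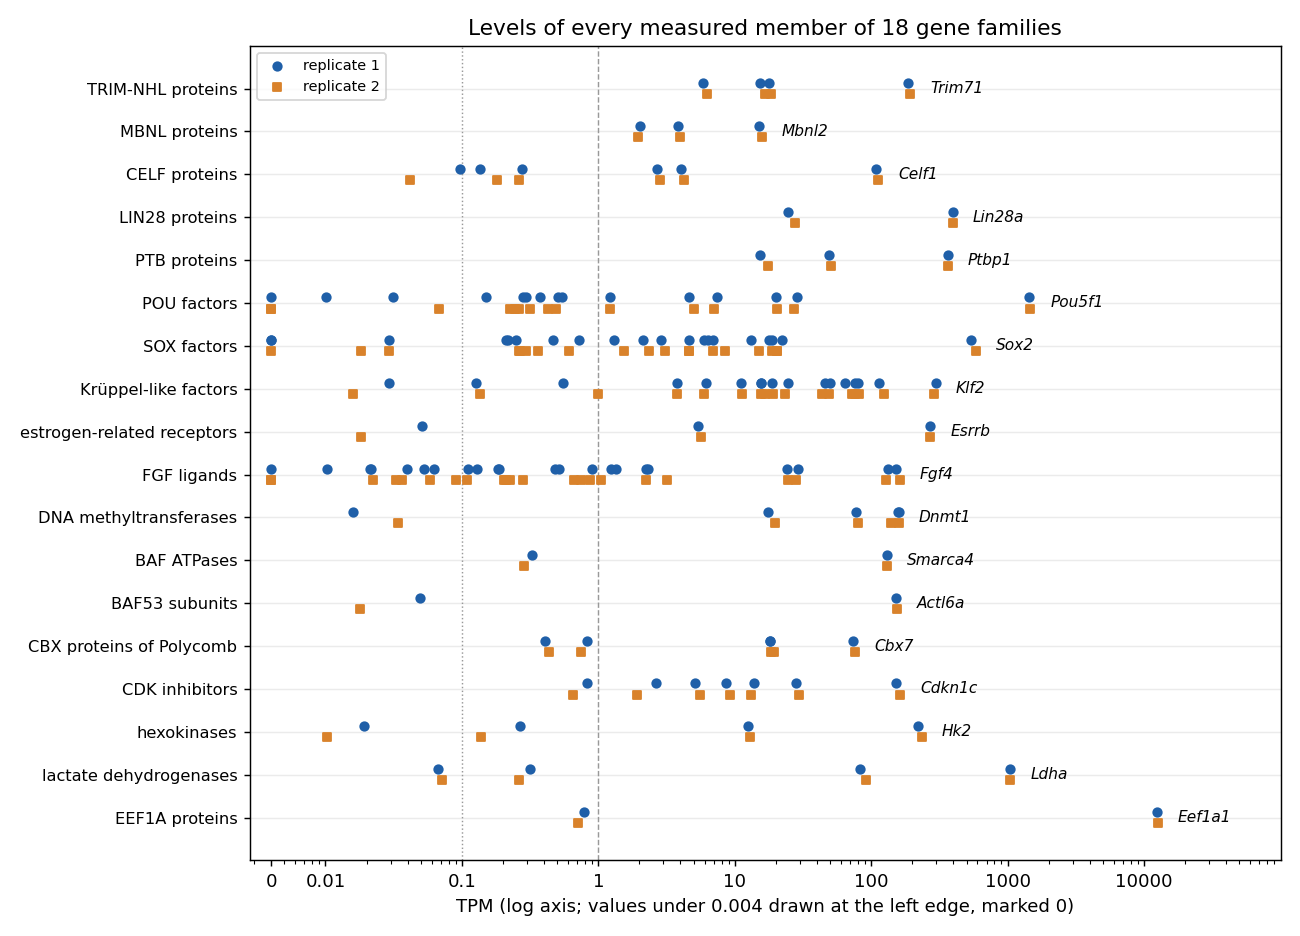
TPM (log axis) of every measured member of 18 families in each of the 2 libraries, with the leading member named. The dotted and dashed lines mark 0.1 and 1 TPM. Eef1a1 stands at 12538 TPM and its muscle and neuron paralog Eef1a2 at 0.75 TPM, while the 3 MBNL genes lie between 1.99 and 15.4 TPM.

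The study's own gene led its family. Among the TRIM-NHL proteins, Trim71 held 82.8% and 82.3% of the family's TPM, ahead of Trim2 (17.8 and 18.5 TPM), Trim32 (15.2 and 16.6 TPM) and Trim3 (5.83 and 6.27 TPM). The MBNL splicing factors were low: Mbnl2 had 15 and 15.8 TPM, Mbnl1 3.83 and 3.99 TPM and Mbnl3 2.02 and 1.96 TPM. Mbnl1 was thus the middle member, 3.93 and 3.96 times below Mbnl2, and Trim71 exceeded Mbnl1 48.9 and 48.3 times. Mbnl1 had rank 9375 among protein-coding genes.

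CELF proteins, which oppose MBNL at many exons, were almost wholly Celf1, at 109 and 113 TPM, with Celf4 (4.03 and 4.28 TPM) and Celf5 (2.69 and 2.82 TPM) also above 1 TPM. Among polypyrimidine-tract proteins, Ptbp1 (366 and 365 TPM) exceeded Ptbp3 (48.7 and 50.4 TPM) and the neuronal Ptbp2 (15.4 and 17.6 TPM). Rbfox2 had 46.4 and 44.9 TPM, against 0.127 and 0.137 TPM for the neuronal Rbfox3 and 0.0159 and 0.0172 TPM for Rbfox1. The ubiquitous HuR gene Elavl1 had 61.6 and 60.2 TPM, ahead of Elavl2 (11.2 and 11.9 TPM), Elavl3 (2.4 and 2.56 TPM) and Elavl4 (1.13 and 1.36 TPM). Esrp1 (11.8 and 11.6 TPM) and Esrp2 (7.53 and 8.08 TPM), the epithelial splicing regulators, were close, and Nova1 (1.1 and 1 TPM) and Nova2 (0.423 and 0.213 TPM) were near or under 1 TPM.

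Lin28a exceeded Lin28b, at 24.7 and 27.7 TPM, by 16.1 and 14.3 times. Of the Argonautes that load microRNAs, Ago2 (32.3 and 28.6 TPM) and Ago1 (21.7 and 22.6 TPM) were close, Ago3 had 2.88 and 2.88 TPM and Ago4 0.182 and 0.207 TPM. Poly(A)-binding proteins were led by Pabpc1 (472 and 384 TPM), with Pabpc4 (163 and 163 TPM) and the nuclear Pabpn1 (19.9 and 22.1 TPM), and the oocyte form Pabpc1l had 0 and 3 counts. Telomere genes were all above 1 TPM: Terc and Dkc1 (246 and 252 TPM) led, then Terf1 (59 and 64.2 TPM), Tinf2 (32.8 and 35 TPM), Terf2 (23.9 and 26.2 TPM), Pot1a (16.2 and 16.3 TPM), Acd (15.5 and 15.4 TPM), Pot1b (8.38 and 8.95 TPM) and the reverse transcriptase Tert (7.73 and 7.95 TPM).

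Several transcription factor families were led by a pluripotency factor. Pou5f1 held 95.7% and 95.9% of the TPM of 15 POU genes. The next were Pou4f2 (28.7 and 27.1 TPM), a factor known from retinal ganglion cells, and the widely expressed Pou2f1 (20.1 and 20.3 TPM), and Pou4f1 (4.63 and 5.04 TPM) and Pou2f3 (1.23 and 1.22 TPM) also reached 1 TPM. Sox2 held 83.8% and 84.3% of 20 SOX genes. Sox13 (21.3 TPM), Sox4 (19.5), Sox11 (18.4) and Sox15 (14.2) exceeded 10 TPM, and Sox12 (7.73), Sox1 (6.42), Sox18 (5.49), Sox21 (4.59), Sox7 (2.98), Sox3 (2.24) and Sox17 (1.42) exceeded 1 TPM.

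The Krüppel-like factors were spread over many members. Of 17, 12 exceeded 10 TPM, and Klf2, the leader, held only 36.2% and 34.9%. Behind Klf2 and Klf4 stood Klf9 (80.8 TPM), Klf10 (76.4), Klf5 (68.4), Klf6 (49.2), Klf16 (44.9), Klf8 (23.8), Klf13 (19), Klf3 (16.1), Klf15 (15.6) and Klf11 (11.3). Klf7 (6.04) and Klf12 (3.78) exceeded 1 TPM. The erythroid Klf1 lay at 0.55 and 0.991 TPM, and Klf17 was silent at 2 and 1 counts.

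Sall4 led Sall1 (89.7 and 86.3 TPM), Sall2 (8.02 and 8.19 TPM) and Sall3 (3.96 and 3.86 TPM). Esrrb held 98% and 97.9% of its family, with Esrra at 5.36 and 5.66 TPM and Esrrg silent. Of the Dppa genes only Dppa1 had no count. Mycn (169 and 163 TPM) exceeded Myc (108 and 106 TPM), and Mycl had 7.25 and 7.03 TPM. The ID proteins, which block differentiation downstream of BMP, were led by Id1 (345 and 339.7 TPM), ahead of Id2 (76.4 and 67.2 TPM), Id3 (68.2 and 58.7 TPM) and Id4 (4.09 and 3.51 TPM). Among p53 relatives Trp53 had 149.8 and 149 TPM, Trp73 1.38 and 1.5 TPM and Trp63 2 and 0 counts.

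Parts of the LIF pathway were present at moderate levels. The receptor subunits Lifr (29.3 and 30.6 TPM) and Il6st, or gp130 (20.3 and 22 TPM), exceeded the related Cntfr (6.91 and 7.57 TPM) and Il11ra1 (1.83 and 2.07 TPM), while Il6ra had 0.122 and 0.114 TPM and Osmr 0.377 and 0.366 TPM. Jak1 (24.1 and 25.5 TPM) led Jak3 (13 and 13.6 TPM), Tyk2 (11.7 and 12.4 TPM) and Jak2 (3.26 and 3.33 TPM). Stat3, the effector of LIF, had 42.9 and 42.1 TPM, ahead of Stat6 (17.4 and 17.7 TPM), Stat2 (9.47 and 9.64 TPM), Stat4 (4.87 and 5.91 TPM) and Stat5b (3.27 and 3.43 TPM). No receptor, kinase or STAT of the pathway reached 100 TPM.

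FGF signalling drives exit from the naive state. Its ligands were led by Fgf4 (153 and 163 TPM) and Fgf17 (133 and 129 TPM), with Fgf18 (29.1 and 28 TPM) and Fgf15 (24 and 24.6 TPM) next. Fgf3 (2.29 and 3.18 TPM), Fgf1 (2.22 and 2.24 TPM) and Fgf11 (1.35 and 1.05 TPM) were near 1 to 3 TPM. Of 22 ligands 7 were silent, Fgf2 and Fgf9 among them, a share near the 32.5% of all protein-coding genes. The receptor Fgfr1 had 22.3 and 21.3 TPM, against 4.15 and 3.92 TPM for Fgfr2, 3.27 and 3.27 TPM for the decoy Fgfrl1, 1.3 and 1.35 TPM for Fgfr3 and 0.674 and 0.877 TPM for Fgfr4.

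Of the WNT effectors, Tcf7 had 18.1 and 18.4 TPM, Tcf7l1, a repressor in these cells, 7.22 and 5.31 TPM and Tcf7l2 2.09 and 1.77 TPM. The SMAD proteins were led by Smad4, shared by the TGF-beta and BMP arms (46.7 and 47.4 TPM), and the inhibitor Smad7 (38.8 and 42.1 TPM). Smad2 (22.2 TPM) and Smad3 (11.6) of the Nodal arm, Smad5 (18.8) and Smad1 (11.2) of the BMP arm and the inhibitor Smad6 (3.56) followed, and Smad9 had 15 and 22 counts. Smad4 held 30.6% and 30.2% of the TPM of the SMAD genes.

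The members known from the stem cell form of the BAF remodelling complex, esBAF, led their sets. The ATPase Smarca4 (BRG1) had 129.6 and 129.7 TPM, against 0.325 and 0.284 TPM for Smarca2 (BRM). Smarcc1 (113 and 109.9 TPM) exceeded Smarcc2 (11.6 and 12.3 TPM), and Actl6a (152 and 155 TPM) was nearly alone beside the neuronal Actl6b (6 and 2 counts). Smarcd1 (81.6 and 86.4 TPM) and Smarcd2 (48.4 and 48 TPM) exceeded Smarcd3 (6.47 and 6.65 TPM), and Phf10 (50.0 and 56 TPM) and Dpf2 (31.7 and 30.1 TPM) exceeded the neuronal Dpf1 (6.58 and 6.43 TPM) and Dpf3 (0.191 and 0.224 TPM). Arid1a had 49.4 and 41 TPM and Arid1b 11.2 and 11.2 TPM.

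Polycomb genes were led by Ezh2 (53.6 and 58.2 TPM) over Ezh1 (9.62 and 9.74 TPM), Rnf2 (159 and 164 TPM) over Ring1 (6.07 and 6.63 TPM), and Cbx7 (73.5 and 75.8 TPM) over Cbx6 (18.2 and 19.4 TPM) and Cbx2 (18 and 18.5 TPM). Cbx8 (0.831 and 0.742 TPM) lay under 1 TPM. The HP1 genes were shared, with Cbx5 at 194 and 205 TPM, Cbx1 at 161 and 178 TPM and Cbx3 at 54.2 and 58.4 TPM. So were the class I deacetylases Hdac2 (115 and 121 TPM), Hdac1 (99.1 and 97.5 TPM) and Hdac3 (55 and 55.1 TPM), with Hdac8 at 5.02 and 5.24 TPM.

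Among DNA methyltransferases, the maintenance enzyme Dnmt1 (159.7 and 159.6 TPM) and the cofactor Dnmt3l (157 and 139.9 TPM) were close, and their order could not be told from the spread of the libraries. Dnmt3b exceeded Dnmt3a 4.41 and 4.08 times, and Dnmt3c, a rodent enzyme of male germ cells, had 1 and 2 counts. Of the TET enzymes, which oxidise methylcytosine, Tet1 had 87.1 and 83.2 TPM, Tet2 36.9 and 37.4 TPM and Tet3 2.26 and 1.98 TPM.

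The A and E cyclins were each led by a single member. Ccna2 (221 and 226 TPM) outweighed the germ-cell form Ccna1 (0.478 and 0.599 TPM), and Ccne1 (227 and 226 TPM) outweighed Ccne2 (25.6 and 27.1 TPM). Ccnb1 (260.2 and 267 TPM) and Ccnb2 (209.6 and 218 TPM) were near each other and Ccnb3 was silent. Of the D-type cyclins, which act early in G1 and are often described as low in these cells, Ccnd1 had 131 and 135 TPM, Ccnd3 64.1 and 63.1 TPM and Ccnd2 13.7 and 13.7 TPM.

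The RB family was low, with Rbl1 (9.65 and 10.3 TPM) and Rb1 (9.9 and 9.83 TPM) level and Rbl2 at 3.41 and 3.49 TPM. The order of the first 2 changed between the libraries. Of the CDK inhibitors, Cdkn1c, an imprinted gene also named p57, had 152 and 164 TPM, or 72% and 73.2% of its set. Cdkn1b had 28.3 and 29.3 TPM, Cdkn2d 13.9 and 13.2 TPM, Cdkn1a, the p53 target p21, 8.56 and 9.21 TPM, Cdkn2a 5.15 and 5.56 TPM and Cdkn2b 2.62 and 1.94 TPM, and Cdkn2c lay under 1 TPM.

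Metabolic families had 1 dominant isoenzyme at most steps of glycolysis. Glucose entry was shared by Slc2a3 (352 and 367 TPM) and Slc2a1 (283 and 265 TPM), with Slc2a8 (5.23 and 6.37 TPM) and Slc2a5 (2.33 and 2.5 TPM) low. Hk2 had 219 and 235 TPM against 12.6 and 13 TPM for Hk1, and Aldoa had 1141 and 1110.3 TPM against 12.6 and 11.8 TPM for Aldoc. Eno1 had 581 and 580.4 TPM, the muscle form Eno3 51.3 and 50.4 TPM and the neuronal form Eno2 2.06 and 2.34 TPM. Pkm, at 1733 and 1695 TPM, exceeded the liver form Pklr, at 0.585 and 0.843 TPM, and Ldha, at 1035 and 1047 TPM, exceeded Ldhb, at 83.4 and 91.9 TPM.

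Among creatine kinases, the brain form Ckb had 338 and 292 TPM, Ckmt1 8.18 and 7.91 TPM and the muscle form Ckm 5 and 7 counts. Cytochrome oxidase used the ubiquitous subunits: Cox6a1 had 537 and 473 TPM against 1 and 1 counts for the muscle form Cox6a2, and Cox4i1 had 1195 and 1176 TPM against 2.54 and 1.64 TPM for Cox4i2. Cox7a2 (409.8 and 433 TPM), Cox7a2l (155 and 155 TPM) and the muscle form Cox7a1 (14.9 and 18.4 TPM) were all measured. Cox7a1 was thus the one heart or muscle subunit of these sets above 10 TPM.

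Cytoskeletal families were led by ubiquitous forms. Actb held 88.8% and 88.5% of actin TPM, ahead of Actg1 (527 and 528 TPM), with Acta1 (1.6 and 2.22 TPM) and Acta2 (1.66 and 1.97 TPM) low. Tuba1b (631 and 629.8 TPM) led Tuba1a (327 and 309 TPM), Tuba4a (227 and 224 TPM), Tuba1c (211 and 218 TPM) and Tuba3a (1.91 and 1.68 TPM). Tubb5 (1902 and 1863 TPM) led Tubb4b (1052 and 1041 TPM), Tubb2b (202 and 217 TPM), the neuronal Tubb3, Tubb6 (43.6 and 44.9 TPM) and Tubb2a (36.4 and 37.4 TPM). The B-type lamins Lmnb1 (369 and 392 TPM) and Lmnb2 (84.9 and 85.3 TPM) exceeded Lmna (43.4 and 42.6 TPM).

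Cdh1, the epithelial cadherin that joins stem cells into colonies, had 226 and 209.8 TPM. Cdh3 had 16.6 and 15.8 TPM, Cdh4 2.73 and 2.91 TPM and Cdh2 (N-cadherin) 2.28 and 2.21 TPM. Chaperones of the HSP90 family were all above 100 TPM, including Hsp90b1 of the endoplasmic reticulum (514 and 551 TPM) and the mitochondrial Trap1 (267 and 275 TPM). Of the HSP70 genes, Hspa8 (2345 and 2361 TPM), Hspa9 (768 and 826 TPM), Hspa4 (609 and 644 TPM) and Hspa5 (466 and 481 TPM) were high. The heat-inducible Hspa1b (5.64 and 5.22 TPM) and Hspa1a (1.32 and 1.24 TPM), which are near-identical copies, were low, as were Hspa13 (18.4 and 19 TPM), Hspa2 (6.73 and 6.77 TPM) and Hspa12a (1.09 and 1.01 TPM).

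Importin alpha genes, which carry proteins into the nucleus, were led by Kpna2 (364 and 360.4 TPM) over Kpna3 (174 and 177 TPM), Kpna1 (76.6 and 78.2 TPM), Kpna6 (50.4 and 51.4 TPM) and Kpna4 (45.5 and 46.7 TPM). Kpna7, the form of oocytes and early embryos, had 1 and 1 counts.

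Genes of differentiated lineages were for the most part silent or low, with a small set of exceptions. In 22 lists with 329 genes, 150 genes (45.6%) were silent, against 32.5% of all protein-coding genes. No count was drawn by 71 of them. A further 71 reached 1 TPM in both libraries and 25 reached 10 TPM, beside 52.8% and 33.8% of all protein-coding genes.

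**Figure D4:**
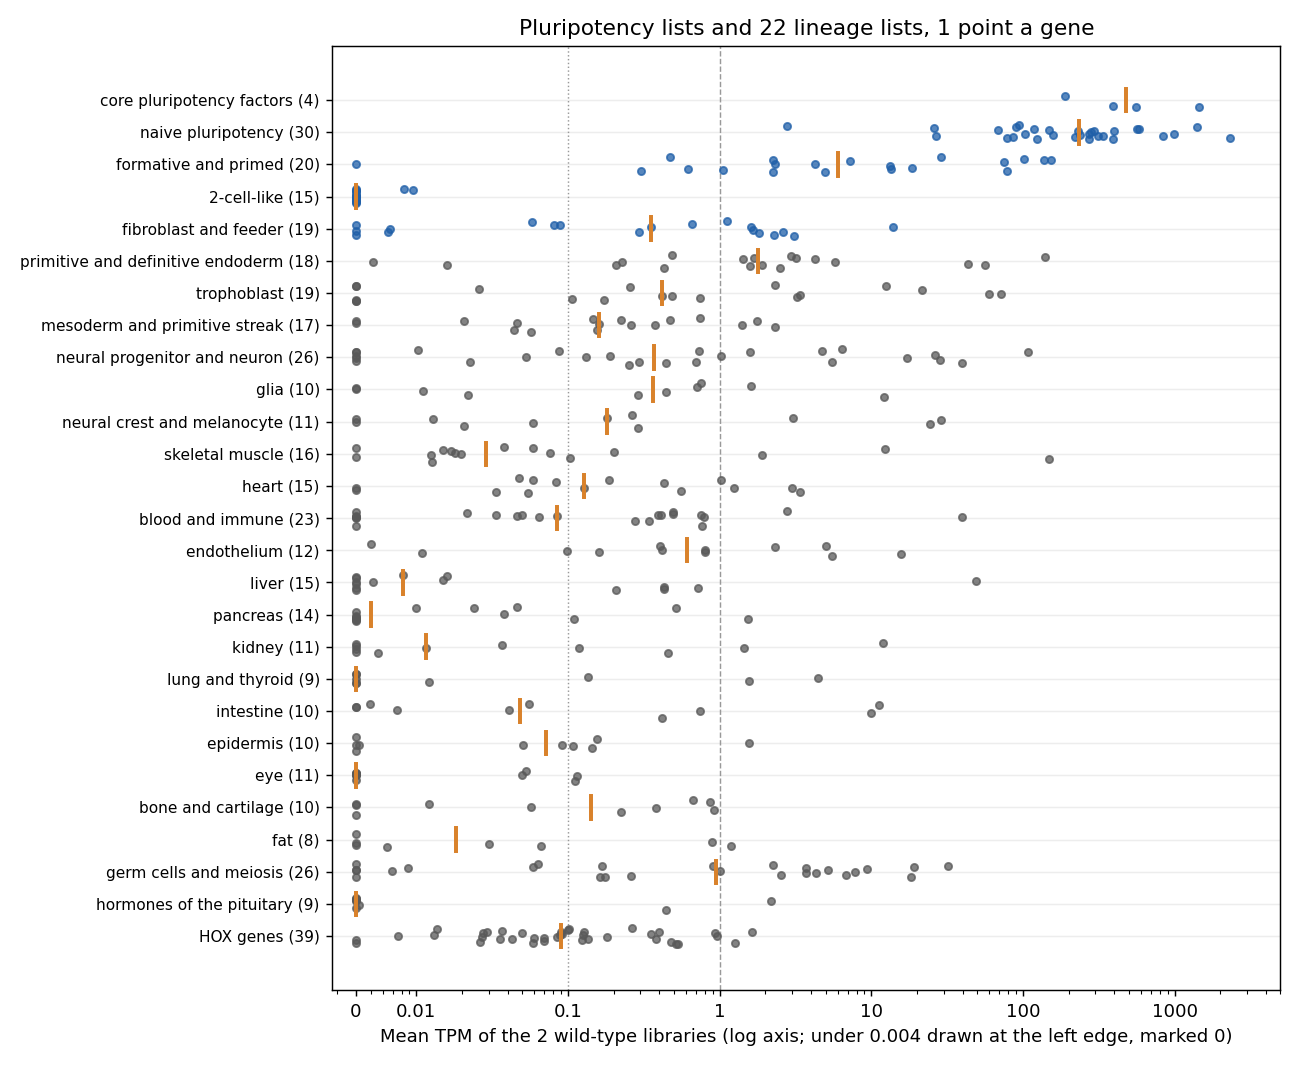
Mean TPM (log axis) of each gene in the pluripotency and control lists (blue) and in 22 lineage lists (grey), with the number of measured genes in brackets. Orange bars mark medians, and the dotted and dashed lines mark 0.1 and 1 TPM. The naive list has a median of 235 TPM, and the highest lineage median is that of the endoderm list at 1.8 TPM.

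The endoderm list was the least silent. In it 12 of 18 genes reached 1 TPM and 2 were silent, beside 52.8% and 32.5% of all protein-coding genes. Matrix genes led it: Sparc (141 and 138 TPM), Col4a1 (53.6 and 58.2 TPM) and Lama1 (43.3 and 44 TPM). The defining transcription factors were far lower, with Gata4 at 5.67 and 5.83 TPM, Sox7 at 2.9 and 3.06 TPM, Gata6 at 1.51 and 1.84 TPM and Sox17 at 1.3 and 1.55 TPM. In the trophoblast list the simple keratins Krt8 (72.6 and 70.6 TPM) and Krt18 (55.9 and 63.7 TPM) led, with Tfap2c (22.5 and 21 TPM) and Krt19 (13.5 and 11.6 TPM). Cdx2, its defining factor, had 0.574 and 0.922 TPM, and Elf5, Prl3d1, Prl2c2 and Tpbpa had no count.

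Early mesoderm genes were low. Eomes (2.21 and 2.44 TPM), Mesp2 (1.7 and 1.83 TPM) and Meox1 (1.35 and 1.45 TPM) were the 3 of 17 that reached 1 TPM, followed by Mixl1 (0.673 and 0.81 TPM), and Tcf21 and Osr1 had no count. None of the 39 HOX genes reached 10 TPM, and 15 were silent. Of all protein-coding genes 52.8% reached 1 TPM, 33.8% reached 10 TPM and 32.5% were silent. Among the highest were Hoxd13 (1.48 and 1.77 TPM), Hoxa7 (1.01 and 0.909 TPM) and Hoxc13 (0.898 and 0.955 TPM), and Hoxb6 and Hoxd3 had no count. These 3 genes come from different HOX clusters.

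Neural genes were mixed: of 26, 9 reached 1 TPM and 8 were silent, beside 52.8% and 32.5% of all protein-coding genes. The silent share is thus near that of all genes. The highest were the tubulin Tubb3 (108 and 107 TPM), the neurofilament Nefl (39 and 40.5 TPM), Gap43 (26.8 and 30.4 TPM), a growth cone protein, and Stmn2 (25.2 and 27.6 TPM). Nes, the intermediate filament of progenitors, had 15.8 and 18.6 TPM. Other structural or synaptic genes were lower, from Map2 at 5.1 and 4.35 TPM and Syp at 0.936 and 1.12 TPM downward. Nefm had 0.388 and 0.505 TPM, Snap25 0.201 and 0.179 TPM and Dcx 1 and 0 counts. Among transcription factors of the lineage, Neurog2, Neurod2 and Neurod4 had no count, while Sox1 had 5.92 and 6.93 TPM, Neurod1 5.37 and 5.58 TPM and Pax6 1.58 and 1.58 TPM. In the glia list Cnp (12.5 and 11.6 TPM), Aldh1l1 (1.52 and 1.71 TPM) and Gfap (0.582 and 0.836 TPM) were among the highest, and S100b had no count.

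In the neural crest list Foxd3, a gene shared with the stem cell programme, led, then Pmel, a melanosome protein (25.9 and 23.1 TPM), Mitf (3.09 and 2.98 TPM) and Sox10 (0.218 and 0.36 TPM). The pigment enzymes Tyr and Dct had no count. In skeletal muscle, Mylpf, a fast myosin light chain, had 148 and 151 TPM at rank 888, while the factors Myod1, Myf5, Myf6 and Myog had at most 2 counts in a library. Des had 12 and 12.7 TPM, Acta1 1.6 and 2.22 TPM and Tnnc2 7 and 2 counts, and Myh2 had none. A single contractile gene therefore exceeded 100 TPM in a list where 11 of 16 were silent, beside 32.5% of all protein-coding genes.

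The heart list had no member above 10 TPM. Myl7 (2.91 and 3.85 TPM), Tnni3 (2.47 and 3.51 TPM), Nppb (1.08 and 1.41 TPM) and Myh6 (0.996 and 1.04 TPM) led, and Nppa had no count. In blood, Cd68, a lysosomal protein of macrophages, had 42.2 and 37.1 TPM, and the factors Tal1 (2.62 and 2.96 TPM), Gata1 (0.82 and 0.762 TPM) and Klf1 (0.55 and 0.991 TPM) followed. The haemoglobins Hba-a1, Hba-a2 and Hbb-bs and the T cell gene Cd8a had no count, and Ptprc, the pan-leukocyte CD45, had 0.0402 and 0.0269 TPM. Hba-a1 and Hba-a2 are near-identical copies, so those zeros are uncertain. In endothelium Pecam1, known also from stem cell colonies, had 15.9 and 15.7 TPM, ahead of Sox18 (6.32 and 4.66 TPM), Esam (4.99 and 5.09 TPM) and Tek (2.43 and 2.18 TPM).

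Liver genes were silent in 10 of 15 cases, beside 32.5% of all protein-coding genes, and Alb, Serpina1a, Cyp3a11 and Cyp7a1 had no count. The exception was Apoa2, an apolipoprotein, at 48.1 and 50.8 TPM. Apob (0.713 and 0.732 TPM), Cps1 (0.467 and 0.396 TPM) and Hnf4a (0.247 and 0.612 TPM) were under 1 TPM. In pancreas Neurog3 had 1.47 and 1.61 TPM, Mafa 0.448 and 0.581 TPM, Pdx1 0.114 and 0.105 TPM and Nkx6-1 0.0559 and 0.0362 TPM, and the hormones Ins1, Ins2, Gcg and Sst had no count. In kidney Nphs1, the nephrin of the slit diaphragm, had 11.5 and 12.4 TPM, ahead of Wt1 (1.35 and 1.55 TPM), Pax8 (0.492 and 0.419 TPM) and Six2 (0.166 and 0.0715 TPM), with no count for Umod, Aqp2 and Slc22a6.

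In lung and thyroid, the ciliary factor Foxj1 had 4.4 and 4.55 TPM, Sftpd 1.83 and 1.3 TPM and Tg 0.0158 and 0.00853 TPM, and Nkx2-1, Sftpa1, Sftpb and Sftpc had no count. In intestine Chga had 11.4 and 11.2 TPM, Cdx1 10.3 and 9.72 TPM, Cdx2 the value given above and Vil1 0.356 and 0.48 TPM, with no count for Fabp2 and Olfm4. In epidermis Krt10 led at 1.38 and 1.74 TPM, then Krt15 (0.139 and 0.172 TPM), Krt14 (0.18 and 0.108 TPM) and Dsg3 (0.0654 and 0.152 TPM), and Krt5, Ivl and Flg had none. Cdx1 exceeded its paralog Cdx2 in both libraries.

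No gene of the eye, bone or fat lists reached 1 TPM in both libraries. Among the highest in each were Rpe65 (0.0726 and 0.157 TPM), Crygc (0.223 and 0 TPM) and Rax (0.054 and 0.0519 TPM) for the eye, and Comp (0.97 and 0.856 TPM), Col2a1 (0.911 and 0.808 TPM), Acan (0.601 and 0.726 TPM) and Sox9 (0.467 and 0.293 TPM) for bone and cartilage. For fat they were Adipoq (1.45 and 0.933 TPM), Cebpa (0.905 and 0.877 TPM), Ucp1 (0.0643 and 0.0695 TPM) and Plin1 (0.0604 and 0 TPM). No count fell on Crx, Opn1sw, Opn1mw, Cryaa, Ibsp, Col10a1, Dmp1, Fabp4, Lep or Cidec. Of the pituitary hormones Pomc had 2 and 2.36 TPM and Cga 0.405 and 0.477 TPM, Tshb drew 0 and 1 counts, and Pou1f1, Gh and Prl had none.

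Of 26 germ cell genes, 12 reached 1 TPM and 8 were silent. These shares are near those of all protein-coding genes, 52.8% and 32.5%. Ddx4, the germ cell helicase VASA, had 31 and 33.4 TPM, Rhox5 18.9 and 19.6 TPM, the PIWI protein Piwil2 18 and 18.5 TPM and Nanos3 8.92 and 9.8 TPM. Prdm1 (7.98 and 7.74 TPM), the meiotic axis gene Sycp3 (6.61 and 7.08 TPM) and Dazl (4.29 and 4.42 TPM) were lower. Genes of mature sperm were at 0: Prm2, Tnp1 and Tnp2, with Nanos2 of male germ cells. Of the Rhox genes only Rhox5, Rhox13 (3.24 and 3.46 TPM) and Rhox6 (1.35 and 1.39 TPM) reached 1 TPM.

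Large families of sensory and tissue genes were mostly at 0. Of 1020 olfactory receptors, 977 had no count in either library and 1016 were silent. The one above 1 TPM was Olfr985 at 2.97 and 2.92 TPM, from 159 and 145 counts. Of 291 vomeronasal receptors, 267 had no count and Vmn1r53 was highest at 1.16 and 1.01 TPM. All 15 trace amine receptors had no count, and of 38 taste receptors only Tas1r1 (1.61 and 1.28 TPM) reached 1 TPM.

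Of 56 keratin-associated proteins, 55 had no count, and of 21 late cornified envelope proteins 20 had none. Among 53 keratins, 5 exceeded 10 TPM: Krt8, Krt18, Krt17 (46.3 and 43.8 TPM), Krt42 (25.7 and 22.7 TPM) and Krt19. Of 21 major urinary proteins, which are pheromone carriers made in liver, Mup6 stood alone at 21.2 and 22.6 TPM and 19 had no count. Many of these genes are near-identical copies, so their zeros are uncertain. Clustered protocadherins, which label single neurons, were low, with Pcdhgc3 highest at 5.18 and 4.84 TPM. Its exons overlap those of other members by 38.5%.

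The genes named Zfp went the other way. Of 394 such genes, mostly zinc finger factors, 343 (87.1%) reached 1 TPM, against 52.8% of all protein-coding genes, with a median of 9.46 TPM. After Zfp42, Zfp990 (260.0 and 275 TPM), Zfp57 and Zfp207 (164 and 173 TPM) were highest. Of 342 solute carriers, 52% reached 1 TPM, a share near that of all protein-coding genes, led by the mitochondrial ADP/ATP carrier Slc25a5 (1184 and 1189 TPM). Of 93 cytochromes P450, 9 did so and 64 were silent, and Cyp20a1 was highest at 39.6 TPM on average.

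The Y chromosome was nearly empty. Of 10 Y-linked genes of the list, none reached 1 TPM, and Sry, Kdm5d, Zfy2 and Rbmy had no count. Eif2s3y, which is expressed in all male tissues, had 17 and 20 counts, against 12056 and 11462 for its X-linked partner Eif2s3x. Ddx3y had 10 and 7, Uty 13 and 7 and Uba1y 45 and 39, against 96931 and 96534 for Ddx3x, 8494 and 7942 for Kdm6a and 47821 and 45687 for Uba1. Whether reads of the X-linked partners reached the Y genes was not tested. A gene model on the Y chromosome, Gm47283, had 3794 and 3995 counts.

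Xist, the RNA that coats an inactive X chromosome, had 3 and 4 counts, whereas its antisense partner Tsix, which is known from undifferentiated cells, had 772 and 782. Ftx, also of the X-inactivation centre, had 2.87 and 3.03 TPM and Jpx 0.12 and 0.117 TPM. On the X chromosome 383 of 941 protein-coding genes reached 1 TPM, or 40.7%. The autosomes ranged from 45.5% on chromosome 6 to 62.4% on chromosome 8. Among genes at 1 TPM or more, the median was 15.4 and 15.7 TPM on the X chromosome, against 17.6 and 18 TPM on the autosomes.

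Of 30 imprinted genes, which are expressed from 1 parental copy, 24 reached 1 TPM, beside 52.8% of all protein-coding genes and 31.4% of all genes. The highest were Phlda2 (225 and 225 TPM), Grb10, a growth factor receptor adaptor (169.8 and 191 TPM), Cdkn1c and Impact (137 and 135 TPM). Slc38a4 (98.6 and 97.1 TPM), Mest (90.6 and 92.6 TPM), Peg10 (88.4 and 74.4 TPM), Snrpn (57 and 62.6 TPM) and Gnas (48.2 and 48.3 TPM) followed. On chromosome 12, the maternally expressed RNAs Rian (53.8 and 61.4 TPM), Mirg (24.3 and 29.3 TPM) and Meg3 (12.6 and 15 TPM), exceeded the paternally expressed Dlk1 (1.22 and 1.35 TPM) and Dio3 (1.88 and 1.36 TPM).

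H19 had 52.9 and 52.2 TPM and Igf2r 30.6 and 31.9 TPM, while its ligand Igf2 had 8.36 and 6.92 TPM, an uncertain value with 62.8% overlap. Nespas (11 TPM), Peg3 (11), Nnat (10.9), Mkrn3 (9.43), Ndn (5.75), Plagl1 (2.67) and Kcnq1ot1 (2.56) lay between 2 and 13 TPM. Airn, Usp29 and Rasgrf1 were silent. Counts per gene do not show which parental copy was read.

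The length of protein-coding genes differed between levels. Median exon length was 3057 nt at 100 TPM or more, 4538 nt at 10 to 100 TPM and 2307 nt under 0.1 TPM. Since TPM divides by this length, that relation is in part built in. A comparison of promoter composition was void, because only 14147 of 21461 genes, under 80%, had a promoter in the RefSeq table.

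The libraries agreed closely for protein-coding genes. Pearson's r of log2 TPM was 0.998 across 11345 protein-coding genes at 1 TPM or more, a description across genes, which are not replicates. At 100 TPM or more, 99.4% of protein-coding genes differed by less than 1.2-fold in CPM. The share was 98.8% at 10 to 100 TPM, 88.5% at 1 to 10 TPM and 47.3% at 0.1 to 1 TPM. Under 0.1 TPM, 32.6% of genes with a count in both differed 2-fold or more.

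**Figure D5:**
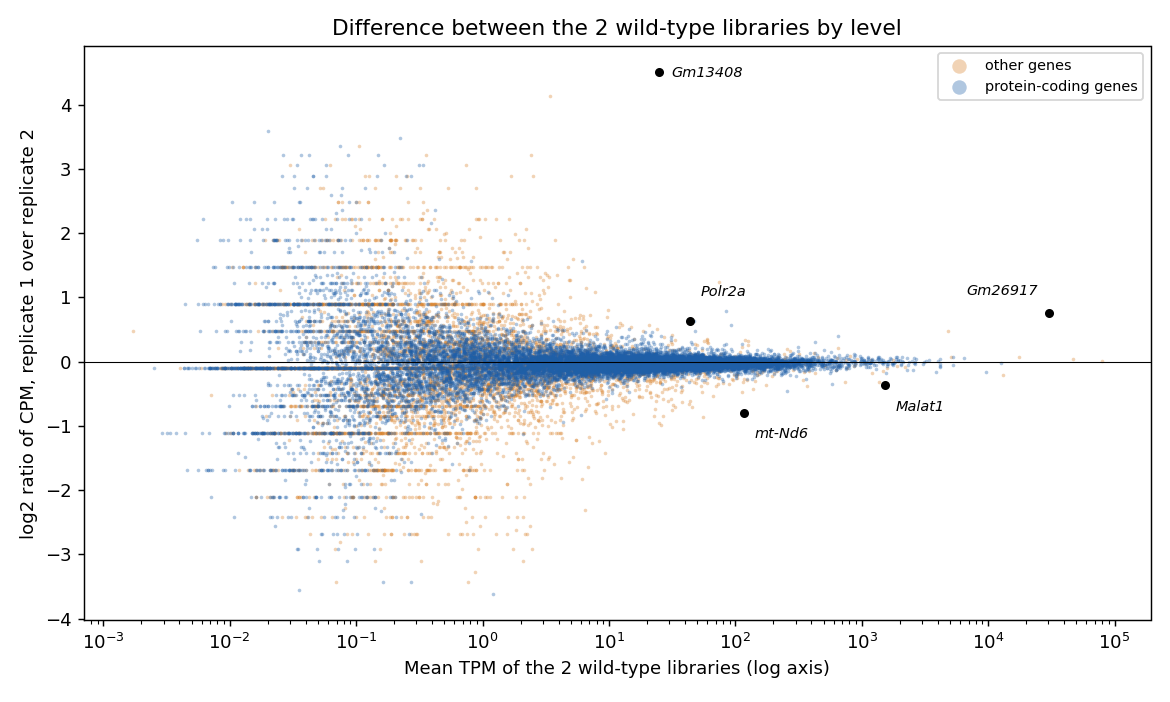
The log2 ratio of CPM, replicate 1 over replicate 2, against the mean TPM (log axis), 1 point a gene with a count in both libraries. Blue points are protein-coding genes and orange points are other genes. The cloud narrows with level, and Gm13408 stands apart at 4.51.

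Among genes of 10 TPM or more on average, the largest difference was that of the processed pseudogene Gm13408, with 1078 and 44 counts, 13.4 and 0.586 CPM. The other 6 libraries of the series had 0.317 to 0.692 CPM, so replicate 1 stood apart. The other 9 were short RNAs or small gene models. Scarna9 had 209 and 82 counts, and Gm27616, Mir412, Gm22200, Gm37506, Mir494, Mir666, Mir5098 and Gm22270 were higher in replicate 2. Of these, Gm22270 had the most counts, 148 and 249.

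Chosen after their values were seen, protein-coding genes with the largest ratios were mostly higher in replicate 1. mt-Nd6 had 1251 and 2025 counts, Hist1h4m 1228 and 659, Polr2a, the catalytic subunit of RNA polymerase II, 10758 and 6454, Ppp2r2a 8810 and 5256 and Pcbp2 16345 and 10199. For Polr2a that is 133 and 86 CPM, and the other 6 libraries ranged from 52.7 to 122 CPM. Replicate 1 thus lay above the other libraries and replicate 2 within their range. Gm26917 had 44558 and 26233 CPM, and its part in these differences was not tested.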

How the data were processed

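Whole-number read counts per gene were deposited by the authors, in 1 column for each library. STAR 2.5.0 and the build mm10 are named in the submitters' processing notes. The sources used here give neither the annotation release nor the strand setting. Noncoding genes inside a highly counted protein-coding gene had a median of 0.359 counts per kb where they lie on the opposite strand (n = 357) and 30.7 on the same strand (n = 203). Of 43346 listed genes, 42462 matched GENCODE M21 (GRCm38) by ID without version. TPM was computed here from counts and merged exon length, over all matched genes. A gene was detected at 1 TPM or more in both libraries and silent under 0.1 TPM in both. Genes with exons under 200 nt are given as counts. The wild-type group came from the sample labels. No test was run, because 1 group of 2 libraries has no comparison.

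The members and lists were chosen with earlier results of these data known. The text names the 20 nuclear protein-coding and 10 noncoding genes with the highest mean TPM, up to 5 of each other gene class, family members at 1 TPM or more, the 4 highest and up to 4 uncounted genes of each lineage list, and the 10 genes of 10 TPM or more that differed most between the libraries. Not every gene under this rule is spelled out, and some are not reported here. The computation was tested on simulated counts. Python 3.11.15, pandas 2.3.3, numpy 2.4.6, R 4.3.3 and edgeR 4.0.16 were used, the last for TMM factors only. Other lengths, units, thresholds and single libraries were tried as alternatives.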

Additional observations from a re-analysis of the deposited data

How the results depend on the processing

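The count of detected genes stayed within 1.5 times of 13317 under all alternatives run, from 11752 at 2 TPM to 14902 at 0.5 TPM, and was 13593 to 13690 with 1 library left out. Without mitochondrial loci and loci resembling ribosomal RNA, the top 10 genes held 5.67% and the top 100 held 18.9% of counts. As shares of TPM these were 22.7% and 40.4%. With 1 library left out they were 8.36% to 9.91% and 21.9% to 23.3% of counts. As shares of TPM, protein-coding genes held 74.3%, misc_RNA 8.06% and ribozyme genes 6.50%. Without loci resembling ribosomal RNA, the shares of counts were 96.7% for protein-coding, 0.641% for lincRNA, 0.987% for misc_RNA and 0.736% for ribozyme genes. The shift with TPM follows from the short length of the last 2 classes. Of 150 silent lineage genes 71 had 0 counts in both libraries, and 160 to 163 were silent with 1 library left out. The leading member was the same in 65 of 70 families with the longest transcript as length, in 67 by counts with no length, and in 69 with either library left out, where the leaders of the Rbl1 and Terc sets changed. The families whose leader changed with transcript length were those of Dnmt1, Rbl1, Cbx5, Hdac2 and Terc, and with counts alone those of Smad4, Hsp90ab1 and Terc. TMM factors moved the median log2 ratio of the libraries from -0.03 to -0.00075. No paired analysis was possible because the results come from no test and 1 group only. Depth limits the genes under 0.1 TPM, where a gene of median length had 10.1 and 9.33 counts at that level.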
